A study of Mus musculus with 8 samples.

Results

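Expression of 35 macrophage and monocyte genes was examined in 8 subcutaneous N2A tumors. The list was given as gene symbols with no threshold on a measured value, although earlier results of these data were known when it was drawn up. All 35 were found among 35419 gene symbols, and all 35 passed the filter on low counts that left 15193 genes for testing. Tumors came from female A/J mice, bought at 4 weeks of age and grafted in the right flank with the mouse neuroblastoma line Neuro-2a (N2A). Once the graft could be felt, mice received intraperitoneal SR59230A at 10 mg/kg, an antagonist of the β3-adrenergic receptor, or its vehicle (physiological solution), 2 times a day. The SR59230A group held 4 tumors (numbered 1 to 4) and the vehicle group 4 (numbered 0 to 3). No antibody was given in either group, and the host mice were immunocompetent, so the leukocytes in the tumors were the mouse's own while the tumor cells came from 1 cell line. The comparison asked which macrophage transcripts differed between tumors and with SR59230A.

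Macrophages in tumors arise from blood monocytes and from cells already resident in the tissue. Their development depends on the CSF1 receptor and on the transcription factor PU.1, encoded by Spi1, which binds ETS-type sites in the promoters of many myeloid genes. They take up debris and antibody-coated targets through Fc, scavenger and lectin receptors and degrade them in lysosomes. Monocytes that have just arrived carry Ccr2, tissue macrophages that scavenge carry Mrc1 and Cd163, and type 2 cytokines induce Clec10a and Retnla in mouse macrophages. A tumor was measured here as bulk RNA, so fewer macrophages and less RNA per macrophage cannot be told apart.

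RefSeq promoter sequences (GRCm38.p6) are shown for 4 members that the results turn on, picked after their values were seen and because they hold the letters of a PU.1-type site. Each run lies directly before the GENCODE gene start, reads 5′ to 3′ on the gene's strand, and has the letters GAGGAA in capitals (TTCCTC where they lie on the other strand). Mrc1, the mannose receptor, held 3 matches, the nearest 7 bases before the start. Retnla, a secreted resistin-like protein, held 1 match at 132 bases. Fcgr1, the high-affinity receptor for IgG, held 1 at 49 bases, and Clec7a, the β-glucan receptor Dectin-1, held 1 at 90 bases.
Mrc1, chr2:14229164-14229391 (+): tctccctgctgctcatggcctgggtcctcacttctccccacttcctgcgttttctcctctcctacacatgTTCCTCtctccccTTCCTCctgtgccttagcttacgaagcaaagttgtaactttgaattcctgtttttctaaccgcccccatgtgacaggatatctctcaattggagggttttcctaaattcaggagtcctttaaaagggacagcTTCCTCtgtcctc
Retnla, chr16:48842359-48842550 (+): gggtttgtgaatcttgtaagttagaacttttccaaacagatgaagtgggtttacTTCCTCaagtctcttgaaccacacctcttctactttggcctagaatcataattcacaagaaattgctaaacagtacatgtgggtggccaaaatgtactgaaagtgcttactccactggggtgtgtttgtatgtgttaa
Fcgr1, chr3:96293970-96294219 (-): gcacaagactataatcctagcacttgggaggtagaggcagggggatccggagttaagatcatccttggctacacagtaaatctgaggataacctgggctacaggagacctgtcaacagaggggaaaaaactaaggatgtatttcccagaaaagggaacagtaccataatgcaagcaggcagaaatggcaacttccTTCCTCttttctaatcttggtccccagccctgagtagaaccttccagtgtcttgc
Clec7a, chr6:129472780-129473029 (-): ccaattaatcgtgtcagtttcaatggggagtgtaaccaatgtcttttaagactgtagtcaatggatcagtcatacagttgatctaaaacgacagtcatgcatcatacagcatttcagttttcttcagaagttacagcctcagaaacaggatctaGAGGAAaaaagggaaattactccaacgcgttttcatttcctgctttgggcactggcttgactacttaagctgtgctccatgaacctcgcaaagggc
Of the 35 members, 28 had an entry in the promoter table, and 13 of these held the letters on 1 strand or the other within 250 bases of a start. Counted by window, 16 of 36 member windows held them (44.4%), against 7639 of 32851 windows of all genes (23.3%). The 4 genes shown were picked among the members with a match, and 15 of the 28 held none, Cd163, Ccr2, Cx3cr1, Itgax, Lgmn and Lyz2 among them. A match of 6 letters is a description and not a binding site.

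Libraries held 23484190 to 43675495 estimated reads in the SR59230A tumors and 28614914 to 44045575 in the vehicle tumors. The 10 core macrophage genes (Adgre1, Csf1r, Cd68, Aif1, Lyz2, Mpeg1, Laptm5, Spi1, Fcer1g and Tyrobp) were all detected in every tumor, and their reads summed to 2922 to 7642 in the SR59230A tumors and to 3357 to 7986 in the vehicle tumors. Aif1 had the fewest, with 13 to 67 reads a tumor. Every member had at least 11 reads in every tumor, and 7 members had under 30 in at least 1 tumor. One library stood apart: SR59230A tumor 1 held 2311 CPM (reads scaled to library size with TMM factors) of skeletal muscle transcripts, against 9.92 to 12.4 CPM in the vehicle tumors, with 200, 28.7 and 11 CPM in SR59230A tumors 2, 3 and 4. Adipocyte markers summed to 63.7, 11.2, 155 and 78.9 CPM in SR59230A tumors 1 to 4 and to 20.4 to 50.9 CPM in vehicle tumors. The T and NK cell markers stayed low in all tumors, with 11 of 11 under 1 CPM on average, and among dendritic cell markers 6 of 11 were under 1 CPM, Flt3 and Clec9a included. The dendritic cell markers summed to 93.5 to 114 CPM with SR59230A and to 79.2 to 93.9 CPM with vehicle, and 5 of the 8 tested were higher and 3 lower, with 2 of the higher at an unadjusted edgeR p under 0.05. Of the neutrophil markers 7 of 11 were under 1 CPM, and all 5 tested were higher with SR59230A, 2 of them at an unadjusted edgeR p under 0.05. Their sum was 48.3 to 113 CPM with SR59230A and 53.2 to 75 CPM with vehicle, most of it Cxcr2 (43.5 to 86.2 CPM with SR59230A and 49.9 to 71.6 CPM with vehicle), and S100a8 and S100a9 reached 7.79 and 11.3 CPM in SR59230A tumor 3. The part of these cell types in the values of genes they share with macrophages was not tested. The neuroblastoma markers summed to 2402 to 3743 CPM with SR59230A and to 3355 to 4894 CPM with vehicle. Of the 13 tested, 12 were lower and 1 higher with SR59230A, 4 of the lower at an unadjusted edgeR p under 0.05. All 7 skeletal muscle markers tested were higher, each at an unadjusted edgeR p under 0.05, and DESeq2 called 3 of them. The part of such differences in tissue content in the fold changes of the members was not tested.

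Per length, the members spanned a wide range of levels (TPM, transcript abundance per length, mean of 8 tumors). Lgmn, the lysosomal protease legumain, was the highest at 376 TPM. It was followed by Apoe (85.2 TPM), which carries lipid, Lyz2 (70.4 TPM), a lysozyme of myeloid cells, Mrc1 (66.6 TPM), Ctss (43.1 TPM), the protease cathepsin S, and Cd163 (34.7 TPM), the receptor for haptoglobin-bound hemoglobin. The range over tumors of each of these genes overlapped that of the next in order, apart from Lgmn. In all, 15 members averaged over 10 TPM and 4 under 1 TPM. The low ones were Cx3cr1 (0.91 TPM), the fractalkine receptor, Gpnmb (0.79 TPM), a lysosomal glycoprotein, Itgax (0.77 TPM), the integrin chain CD11c, and Mertk (0.67 TPM), a kinase that recognises apoptotic cells. Several of the high genes are not confined to macrophages, Lgmn and Apoe among them, and how much of their RNA came from tumor or stromal cells was not measured.

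**Figure D1:**
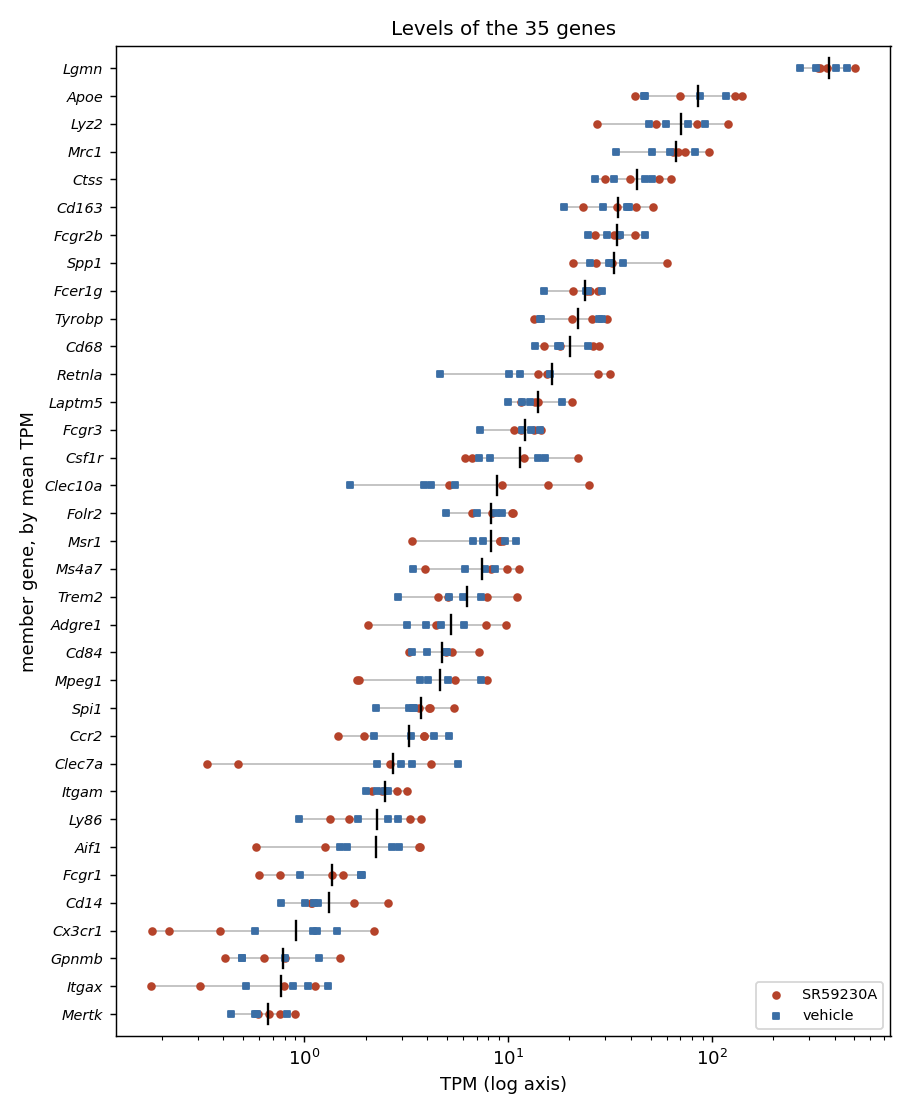
TPM of the 35 macrophage genes in each tumor, on a log axis, ordered by mean (black tick). Circles are the 4 SR59230A tumors, squares the 4 vehicle tumors and the grey line the range; Lgmn leads at 376 TPM and Clec10a, Clec7a, Cx3cr1 and Itgax have the widest spreads.

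The amount of macrophage RNA did not separate the treatments. The 10 core genes summed to 199, 162, 142 and 104 CPM in SR59230A tumors 1 to 4, against 124, 164, 140 and 172 CPM in vehicle tumors 0 to 3. The SR59230A tumors gave both the highest and the lowest value, and the means were 152 ± 39.8 CPM with SR59230A and 150 ± 22.1 CPM with vehicle (SD, n = 4 each; exact two-sided permutation p = 0.971). All 35 members together summed to 1189, 1207, 1555 and 1426 CPM with SR59230A and to 1073, 1192, 1051 and 1653 CPM with vehicle (exact two-sided permutation p = 0.543). Lgmn, Mrc1 and Cd163 made up most of this sum, with 509, 439 and 177 of 1555 CPM in SR59230A tumor 3, and Lgmn is not confined to macrophages. With 4 tumors a group the smallest p the permutation test allows is 0.0286. The labels number the samples of each group without saying that each came from its own mouse, and the study describes its RNA sequencing as done in duplicate. The p-values therefore measure only the spread between these samples, called tumors here, which may in part be technical.

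No member was a differentially expressed gene (DEG), which required a log2 fold change of 0.5 or more in size and an adjusted p under 0.05 in edgeR's quasi-likelihood test. Their edgeR adjusted p ran from 0.996 to 1.00. The background was the same, with 0 of 15193 genes called (0%), so the absence of a call says nothing particular about macrophage genes. At an unadjusted p under 0.05, edgeR gave 704 genes (4.63%) and 2 members, Clec10a and Retnla, both higher with SR59230A. DESeq2 called 36 of 17845 genes (0.202%) and 1 member, Clec10a. The median log2 fold change over the members was 0.12, against -0.00 over all genes tested, and 24 of 35 members were above 0, against 49.6% of all genes. Without vehicle tumor 3 the median was 0.28, and without SR59230A tumors 1 and 2 it was 0.00. In 8 members the log2 fold change was 0.5 or more in size, against 9.49% of all genes. The members had a median SD of 0.43 on the log2 CPM scale against 0.26 over all genes tested, and the standard errors of their fold changes ran from 0.12 to 0.66.

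**Figure D2:**
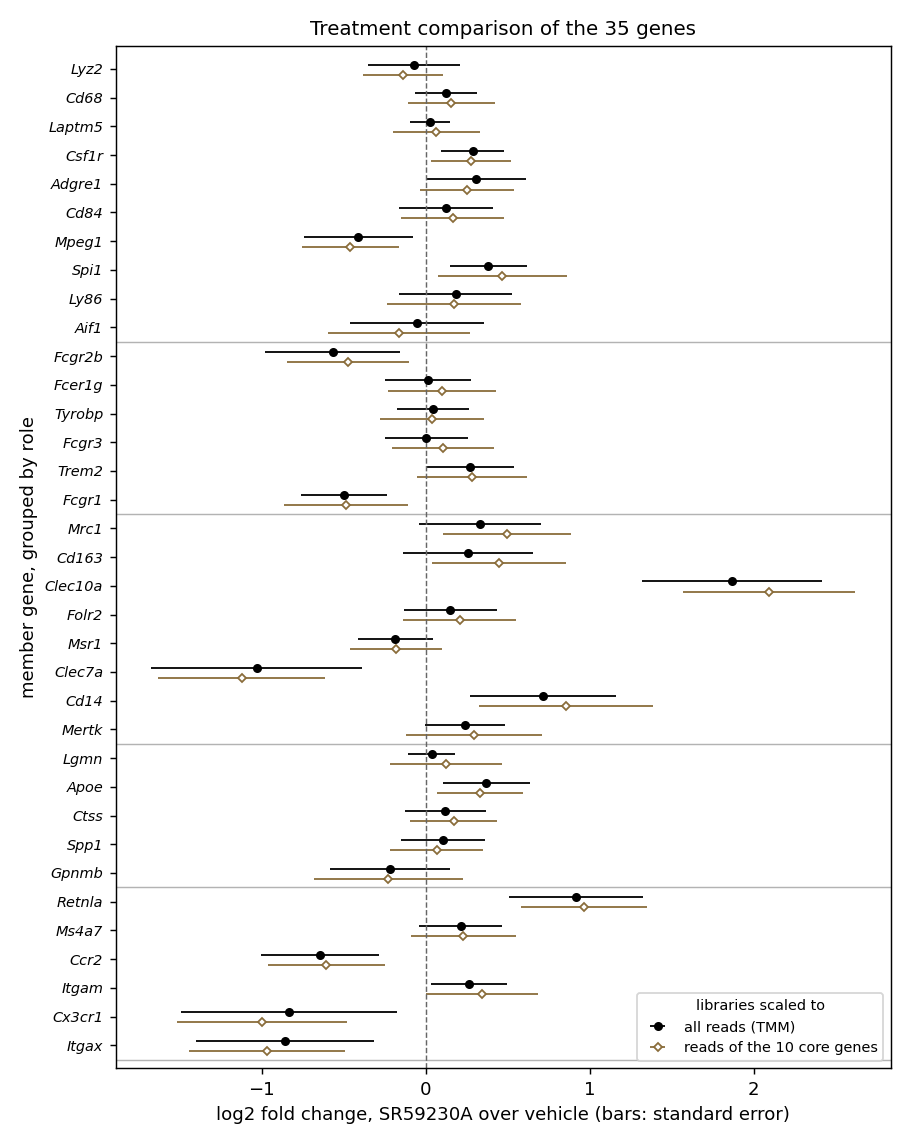
Log2 fold change, SR59230A over vehicle, of each member with its standard error (4 tumors a group), grouped by role from lineage genes at the top to monocyte and adhesion genes at the bottom. Filled circles scale libraries to all reads and open diamonds to the reads of the 10 core macrophage genes; Clec10a lies farthest to the right (1.86) and Clec7a farthest to the left (-1.03).

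Among 10 lineage and pan-macrophage genes, 7 were higher and 3 lower with SR59230A by the sign of the fold change, with a median log2 fold change of 0.12 and none called. Spi1, which encodes PU.1, had 3.06, 2.65, 4.18 and 3.64 CPM with SR59230A, against 2.10, 3.05, 2.48 and 2.72 CPM with vehicle. The groups overlapped only through SR59230A tumor 2, which lay below vehicle tumors 1 and 3, and the log2 fold change was 0.38 (SE 0.24, edgeR p = 0.137, exact permutation p = 0.114). Lyz2 had 84.8, 55.8, 50.7 and 27.8 CPM with SR59230A and 47.0, 63.0, 53.5 and 66.8 CPM with vehicle, so that the SR59230A tumors enclosed the vehicle tumors (log2 fold change -0.07, SE 0.28). Csf1r, the receptor for CSF1, had 33.3, 26.1, 20.9 and 19.7 CPM with SR59230A, against 15.7, 23, 23.1 and 20.2 CPM with vehicle. Adgre1, the F4/80 antigen, had 14.4, 11.9, 8.86 and 5.08 CPM with SR59230A, against 5.89, 9.37, 8.06 and 9.19 CPM with vehicle. For both genes SR59230A tumors 1 and 2 lay above every vehicle tumor and tumors 3 and 4 did not (log2 fold change 0.29 for Csf1r and 0.31 for Adgre1). Mpeg1, the pore-forming protein perforin-2, had 14.7, 19.6, 6.76 and 7.28 CPM with SR59230A, against 14.1, 18.6, 13.3 and 18.5 CPM with vehicle, with SR59230A tumors 3 and 4 below all others (log2 fold change -0.41, SE 0.33). The other members were Aif1 (-0.05), an actin-binding protein, Cd68 (0.12), a lysosomal glycoprotein, Laptm5 (0.02), a lysosomal protein of blood cells, Ly86 (0.18), a partner of the receptor RP105, and Cd84 (0.12), a SLAM family receptor. Laptm5 was the steadiest member, at 16.6 to 19.0 CPM with SR59230A and 15.1 to 19.2 CPM with vehicle.

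Of 6 Fc receptor and ITAM adaptor genes, 4 were higher and 2 lower, with a median log2 fold change of 0.01 and none called. Fcgr1 (chr3:96282909-96293969, GRCm38) was the 1 member whose groups did not overlap, against 1.28% of all genes that were lower with SR59230A without overlap and 2.61% in either direction. It had 1.94, 2.00, 1.61 and 1.37 CPM with SR59230A, against 2.06, 2.30, 2.08 and 3.37 CPM with vehicle. The highest SR59230A tumor lay just under the lowest vehicle tumor, and vehicle tumor 3 was the highest of all. The log2 fold change was -0.50 (SE 0.26, edgeR p = 0.0886, exact permutation p = 0.0286, the smallest it allows), and -0.31 without vehicle tumor 3. Its groups overlapped when scaled by total counts alone and in TPM, where it had 1.55, 1.37, 0.76 and 0.60 TPM with SR59230A, against 0.96, 1.89, 1.92 and 1.89 TPM with vehicle.

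Fcgr2b, the inhibitory Fc receptor, had 42.9, 28.6, 47.5 and 39.5 CPM with SR59230A and 53.7, 33.0, 28.9 and 119 CPM with vehicle. Its negative log2 fold change (-0.57, SE 0.41) rested on the single high value of vehicle tumor 3. Fcgr3, an activating low-affinity receptor, and Fcer1g, the γ chain that signals for it, were near 0 (log2 fold change 0.00 and 0.01), and so was the ITAM adaptor Tyrobp (0.05). Trem2, a lipid-sensing receptor that signals through Tyrobp, had 6.52, 4.27, 3.99 and 3.78 CPM with SR59230A and 2.61, 4.20, 3.59 and 4.98 CPM with vehicle (0.27, SE 0.27).

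The scavenger and lectin receptors held both extremes of the list. Of 8, 6 were higher and 2 lower, with a median log2 fold change of 0.25. Clec10a (chr11:70156197-70170834, GRCm38), a lectin that binds galactose-type glycans, had 3.60, 6.92, 23.4 and 17.1 CPM with SR59230A, against 1.84, 4.28, 3.23 and 4.56 CPM with vehicle. SR59230A tumors 2, 3 and 4 lay above every vehicle tumor, and SR59230A tumor 1 lay within the vehicle range. The means were 12.7 ± 9.13 CPM with SR59230A and 3.48 ± 1.23 CPM with vehicle (SD, n = 4 each), a log2 fold change of 1.86 (SE 0.55, edgeR p = 0.0074, edgeR adjusted p = 0.996, exact permutation p = 0.0857). DESeq2 gave an adjusted p of 0.0472. Without SR59230A tumors 3 and 4, a choice made after seeing the data, the log2 fold change was 0.59. The summed adipocyte markers given above were also highest in SR59230A tumors 3 and 4, and the marker Adipoq reached 10.7 CPM in tumor 3 and 1.99 CPM in tumor 4, against 0.08 to 1.87 CPM with vehicle. Their part in the Clec10a value was not tested.

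Clec7a had the opposite distribution, with 3.11, 4.16, 0.63 and 0.69 CPM with SR59230A, against 3.31, 2.95, 2.99 and 8.62 CPM with vehicle. SR59230A tumors 3 and 4 were far below all others, tumors 1 and 2 lay among the vehicle tumors, and vehicle tumor 3 was the highest. The log2 fold change was -1.03 (SE 0.64, exact permutation p = 0.257), -0.50 without vehicle tumor 3 and -0.30 without SR59230A tumors 3 and 4. Cd14, the co-receptor for lipopolysaccharide, had 0.85, 0.83, 2.77 and 1.85 CPM with SR59230A, against 0.88, 0.74, 0.85 and 1.34 CPM with vehicle. Here again SR59230A tumors 3 and 4 differed, now as the highest, and the log2 fold change of 0.71 (SE 0.45) was -0.18 without them.

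Mrc1 (chr2:14229392-14332057, GRCm38) had 211, 210, 439 and 343 CPM with SR59230A, against 156, 194, 167 and 441 CPM with vehicle. Cd163 (chr6:124304656-124330527, GRCm38) had 86.8, 54.8, 177 and 158 CPM with SR59230A, against 66.3, 93.2, 74.7 and 165 CPM with vehicle. Both were high in the same tumors, SR59230A tumors 3 and 4 and vehicle tumor 3. The log2 fold changes were 0.33 (SE 0.37) for Mrc1 and 0.26 (SE 0.39) for Cd163. Without vehicle tumor 3 that of Mrc1 was 0.80, and without SR59230A tumors 3 and 4 it was -0.19. Vehicle tumor 3 alone made the Mrc1 groups overlap, so their separation without it followed from the choice. Without that tumor 9.83% of all genes did not overlap. The other receptors of this group were Msr1 (-0.18), which takes up modified lipoproteins, Mertk (0.24) and Folr2 (0.15), a folate receptor of tissue macrophages.

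Of 5 lysosomal and lipid genes, 4 were higher and 1 lower, with a median log2 fold change of 0.11. Lgmn had 391, 533, 509 and 606 CPM with SR59230A and 510, 508, 471 and 498 CPM with vehicle, with a narrow vehicle range inside that of the SR59230A tumors (log2 fold change 0.04, SE 0.14). Apoe had 69.9, 66.1, 51.0 and 33.0 CPM with SR59230A and 31, 57.7, 48.0 and 33.5 CPM with vehicle (0.37, SE 0.27). Tumors 1 and 2 with SR59230A lay above all vehicle tumors and tumor 4 near the bottom. Ctss had 42.9, 44.6, 41.8 and 32.6 CPM with SR59230A and 28.1, 37.1, 25.2 and 58.7 CPM with vehicle (0.12, SE 0.25). Its 2 extremes were both vehicle tumors. Spp1, the secreted phosphoprotein osteopontin, and Gpnmb were at 0.11 and -0.22.

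The 6 monocyte, adhesion and other genes had a median log2 fold change of -0.22, with 3 higher and 3 lower. Retnla (chr16:48842551-48844461, GRCm38) had 7.53, 6.28, 5.06 and 4.43 CPM with SR59230A, against 1.51, 2.60, 2.23 and 6.05 CPM with vehicle. All 4 SR59230A tumors lay above vehicle tumors 0, 1 and 2, and only vehicle tumor 3 reached into their range. The means were 5.83 ± 1.37 CPM with SR59230A and 3.10 ± 2.02 CPM with vehicle (SD, n = 4 each), a log2 fold change of 0.92 (SE 0.41, edgeR p = 0.0496, edgeR adjusted p = 0.996, exact permutation p = 0.0857). Without vehicle tumor 3 it was 1.46. The groups did not overlap without that tumor, which follows from leaving out the only tumor that made them overlap. In that fit 9.83% of all genes did not overlap. Retnla is also expressed in adipose tissue. Of the adipocyte markers given above, SR59230A tumor 2, the second highest for Retnla, held less than any vehicle tumor, and in tumor 1, the highest, Car3 made up 51.7 of the 63.7 CPM while Adipoq was at 0.05 CPM. The part of adipose tissue in the Retnla value was not tested.

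Ccr2, the receptor that draws monocytes from blood, had 6.77, 6.45, 3.80 and 4.88 CPM with SR59230A, against 5.78, 5.49, 7.39 and 15.7 CPM with vehicle. Vehicle tumor 3 stood highest, and the log2 fold change of -0.65 (SE 0.36) was -0.18 without it. Cx3cr1 had 4.39, 0.72, 0.54 and 0.72 CPM with SR59230A, against 1.88, 2.46, 2.84 and 4.33 CPM with vehicle. SR59230A tumors 2, 3 and 4 lay below every vehicle tumor, while tumor 1 was above all vehicle tumors but tumor 3 and just above that one. The log2 fold change was -0.84 (SE 0.66, edgeR p = 0.236, exact permutation p = 0.143). Without SR59230A tumor 1 it was -2.11, with an unadjusted edgeR p under 0.05. That tumor alone made the groups overlap, so their separation without it followed from the choice and is no test. Without it 4.79% of all genes did not overlap. Itgax had 2.02, 2.61, 1.02 and 0.38 CPM with SR59230A, against 3.06, 3.16, 1.3 and 3.56 CPM with vehicle. Only vehicle tumor 2 fell within the SR59230A range (log2 fold change -0.86, SE 0.54). Itgam (0.26), the integrin chain CD11b, and Ms4a7 (0.21), a membrane protein of macrophages, completed the group.

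**Figure D3:**
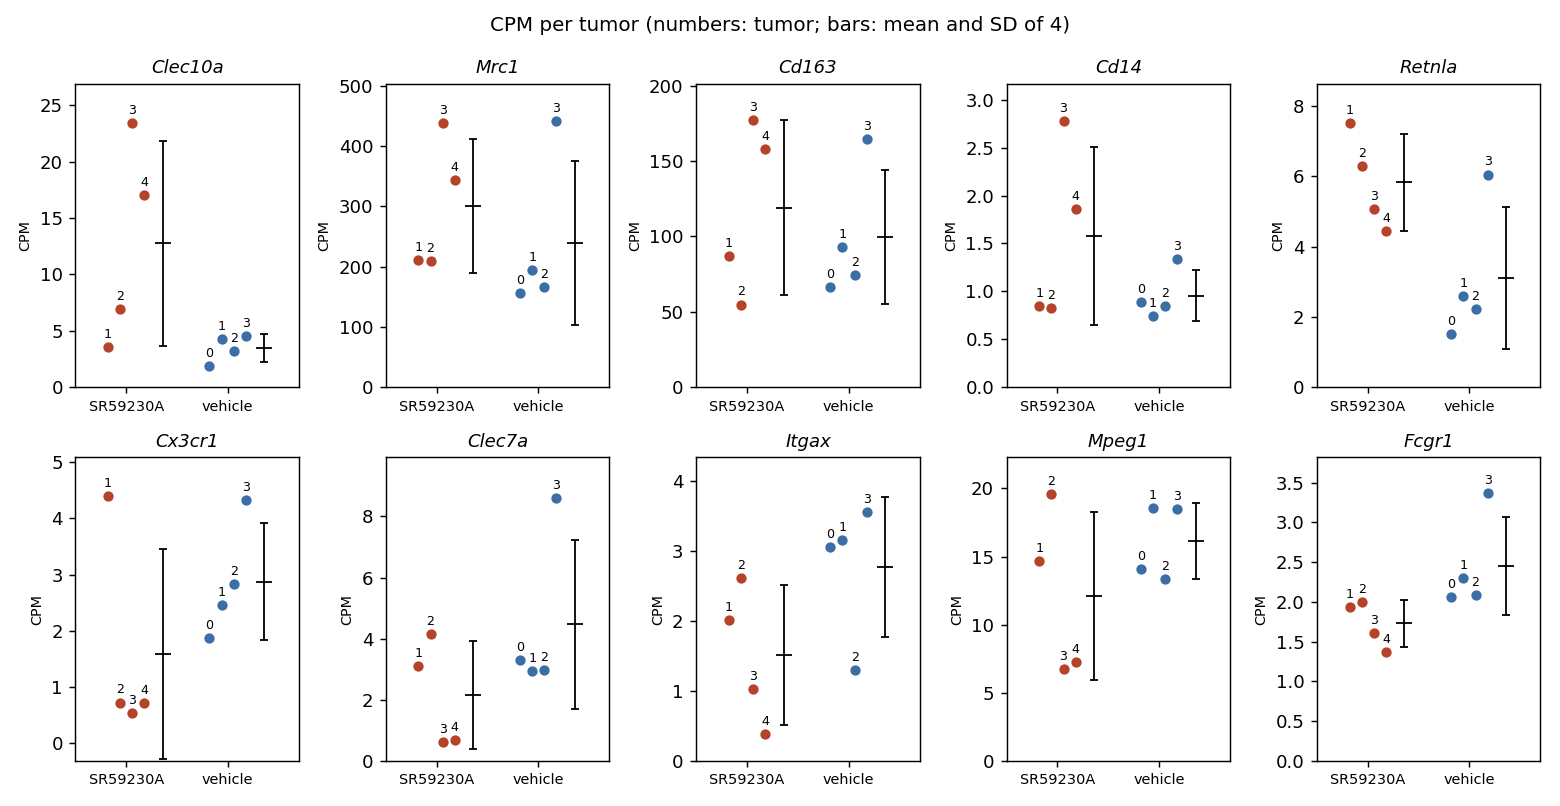
CPM of 10 members per tumor, SR59230A left and vehicle right, with tumor numbers beside the points and the mean and SD of 4 tumors as bars. SR59230A tumors 3 and 4 are the highest 2 of their group for Clec10a, Mrc1, Cd163 and Cd14 and among the lowest for Clec7a, Itgax and Mpeg1; Fcgr1 is the member without overlap.

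To ask which members differed once the amount of macrophage RNA was scaled out, libraries were also scaled to the reads of the 10 core genes. The core genes did not weigh equally. Lyz2 alone made up 268 to 425 of every 1000 core reads with SR59230A and 380 to 388 with vehicle. On this scale edgeR called 0 of 15193 genes, and 253 (1.67%) had an unadjusted p under 0.05. Of the 25 members outside the core, 3 were among them. Clec10a had a log2 fold change of 2.09 (SE 0.53, edgeR p = 0.000872, exact permutation p = 0.114). Retnla followed with 0.96 (SE 0.38, edgeR p = 0.0217, exact permutation p = 0.0286) and Clec7a with -1.12 (SE 0.51, edgeR p = 0.0412, exact permutation p = 0.114). Itgax came next (-0.97, SE 0.48, edgeR p = 0.0561, exact permutation p = 0.0857). Retnla had 37.8, 38.7, 35.6 and 42.7 reads per 1000 core reads with SR59230A, against 12.2, 15.9, 15.9 and 35.2 with vehicle. The groups then did not overlap, although vehicle tumor 3 lay just below the SR59230A range. Fcgr1 had 9.72, 12.3, 11.3 and 13.2 reads per 1000 core reads with SR59230A, against 16.7, 14, 14.8 and 19.6 with vehicle. Fcgr1 and Retnla were the 2 members without overlap on this scale, where 0.671% of all genes did not overlap. On the scale of all reads these shares of all genes were 2.61% without overlap and 4.63% at an unadjusted edgeR p under 0.05. Scaling to core reads adds the spread of the core sum to genes that do not follow it. The scaling itself can thus lower the shares of all genes, which are no like background for macrophage genes. With these scales the median over all genes was -0.00 for all reads and 0.03 for core reads.

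Tumors of the same treatment also differed from each other. By highest value, vehicle tumor 3 led for 13 members, SR59230A tumor 1 for 11 and SR59230A tumor 3 for 7. By lowest value, vehicle tumor 0 came last for 12 members, SR59230A tumor 4 for 7 and vehicle tumor 2 for 6. SR59230A tumor 1 had the highest Csf1r, Adgre1, Lyz2, Apoe and Trem2 and also the muscle transcripts given above, whose part in these values was not tested. SR59230A tumor 4 had the lowest core sum, with high Mrc1 and Cd163.

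**Figure D4:**
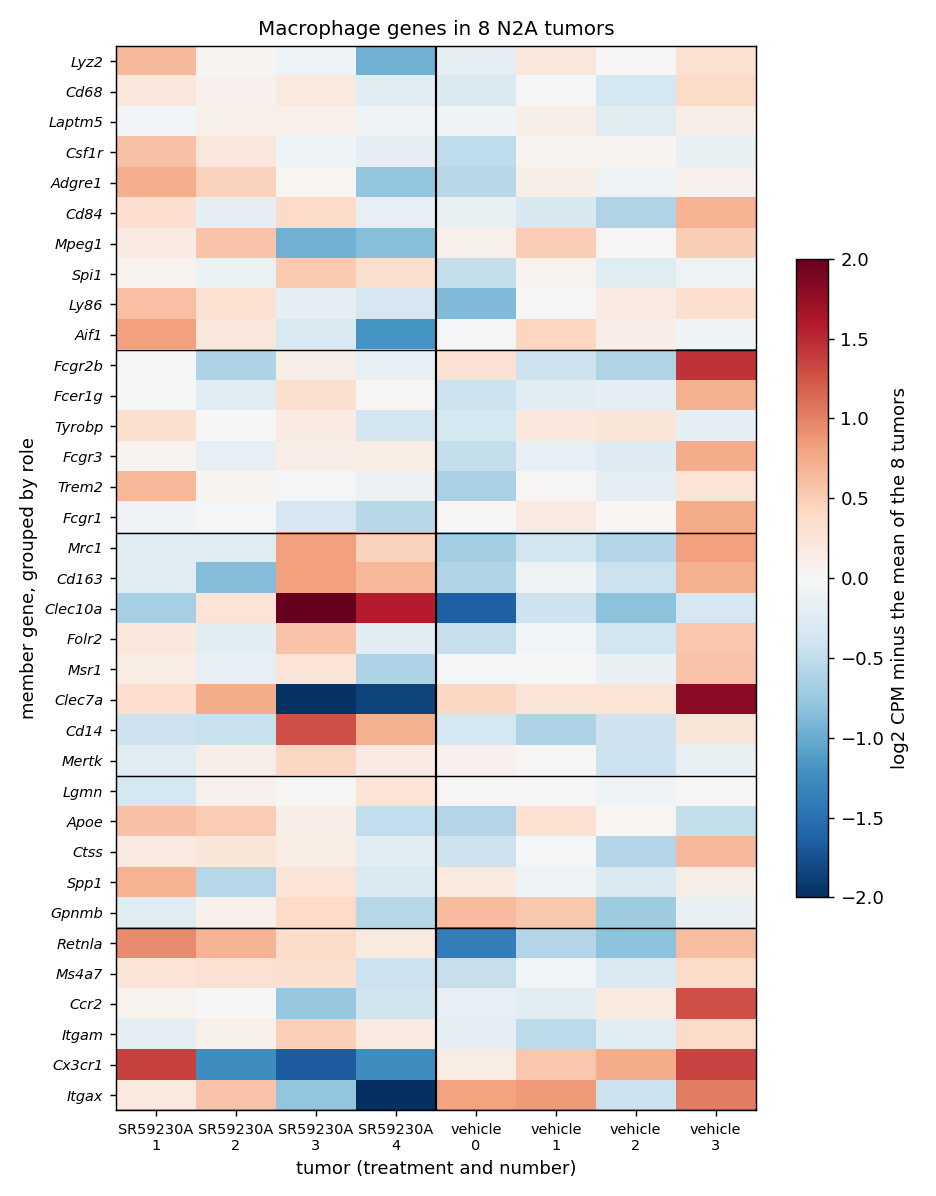
Log2 CPM of each member minus its mean over the 8 tumors (red above, blue below, limits of the scale at 2), with members grouped by role and SR59230A tumors left of vehicle tumors. Vehicle tumor 3 has the highest value of 13 members, and SR59230A tumors 3 and 4 are red for Clec10a, Cd163, Mrc1 and Cd14 and blue for Clec7a, Itgax, Cx3cr1 and Mpeg1.

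The ratios between receptor genes differed between tumors as well. Mrc1 counts were 14.7, 17.6, 49.6 and 67.5 times those of Adgre1 in SR59230A tumors 1 to 4, against 26.4, 20.7, 20.7 and 48.0 times in vehicle tumors 0 to 3. Clec10a, Cd163, Mrc1 and Cd14, a set picked after their values were seen and so given with no test, summed to 302, 272, 642 and 520 CPM with SR59230A and to 225, 292, 245 and 612 CPM with vehicle. Cx3cr1, Itgax, Clec7a and Mpeg1, picked in the same way, summed to 24.2, 27.1, 8.95 and 9.07 CPM with SR59230A and to 22.3, 27.2, 20.5 and 35 CPM with vehicle. The first sum was 12.5, 10.1, 71.7 and 57.4 times the second with SR59230A, against 10.1, 10.8, 12 and 17.5 times with vehicle. SR59230A tumors 3 and 4 had a high first sum and a low second one, which restates how the sets were picked, and vehicle tumor 3 was high for both. Mrc1 and Cd163 made up most of the first sum, with 439 and 177 of 642 CPM in SR59230A tumor 3. In SR59230A tumors 1 and 2 the ratio lay within the range of the vehicle tumors.

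**Figure D5:**
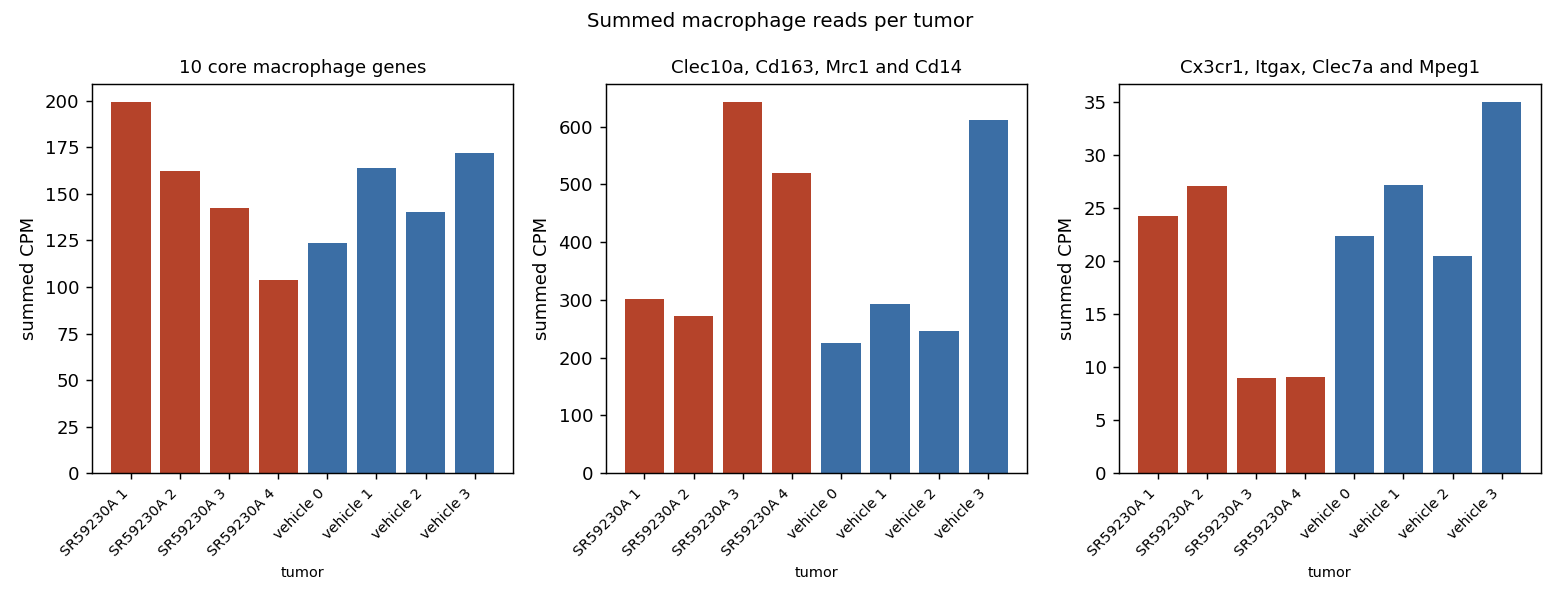
Summed CPM per tumor (bars from 0) of the 10 core macrophage genes (left), of Clec10a, Cd163, Mrc1 and Cd14 (middle) and of Cx3cr1, Itgax, Clec7a and Mpeg1 (right), SR59230A tumors left of vehicle tumors. The core sum runs from 104 to 199 CPM with SR59230A and from 124 to 172 CPM with vehicle, and the right panel is lowest in SR59230A tumors 3 and 4. The genes of the middle and right panels were picked after their values were seen.

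Some members share sequence with a close relative, which makes the division of reads between them uncertain. Shared words were counted over the 1 transcript of each member with the most reads. Of the 31-base words in that transcript of Clec10a, 24.7% also occur in Mgl2, its neighbouring paralog. Mgl2 had 6.08, 3.95, 5.55 and 4.33 CPM with SR59230A, against 1.91, 1.80, 2.78 and 4.48 CPM with vehicle (log2 fold change 0.86, edgeR p = 0.0246, exact permutation p = 0.0857). Clec10a and Mgl2 together had 9.68, 10.9, 29.0 and 21.4 CPM with SR59230A, against 3.76, 6.09, 6.01 and 9.04 CPM with vehicle. In this sum, formed after the values were seen, the groups did not overlap, with SR59230A tumor 1 just above vehicle tumor 3. Each gene alone overlapped, and 2.61% of all single genes tested did not overlap. The separation of the sum is thus a description and no test. Lyz2 shares 32.8% of its words with Lyz1, which had at most 0.30 CPM in any tumor. Itgam shares 74.0% with the annotated gene Gm49368, which had at most 0.57 CPM. Fcgr3 shares 17.7% with Fcgr2b, and Retnla 5.45% with Retnlg, which had at most 0.73 CPM. The leading transcript was annotated as protein coding for 34 of 35 members, the exception being Clec7a, where 89.5% of reads fell on a transcript annotated as a polymorphic pseudogene. The 2 leading transcripts of Clec10a took 53.0% and 41.3% of its reads, and 10.9% of Cd163 reads fell on a transcript with a retained intron.

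The wider macrophage programme was described with 10 further lists, in which edgeR and DESeq2 called no gene. Of 3 C1q chains, which start the classical complement cascade and are made by macrophages, all 3 were higher, with a median log2 fold change of 0.47. Their sum was 79.8, 77.1, 55.3 and 34.6 CPM with SR59230A, against 31.7, 54.5, 51.0 and 38.7 CPM with vehicle, with tumors 1, 2 and 3 above and tumor 4 within the vehicle range (exact permutation p = 0.257). C1qb, at 0.47 (SE 0.24), and C1qa, at 0.51 (SE 0.29), had the smallest p of the chains. Among 14 lineage transcription factors, 8 were higher and 6 lower (median 0.18), with Klf4 at 0.56 (edgeR p = 0.0391, exact permutation p = 0.0857) and Cebpa at 0.39. Of 6 growth factor and receptor genes tested, 4 were higher and 2 lower (median 0.20), with Csf2ra at 0.46 and Csf1, a ligand of Csf1r, at -0.20. Csf1 thus stood on the other side of 0 from Csf1r. Il34, the other ligand of Csf1r, named after its values were seen, was at 0.41 (SE 0.32), on the same side as Csf1r. None of these genes was called.

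Of 15 other resident macrophage genes tested, 9 were higher and 6 lower (median 0.14). The iron exporter gene Slc40a1 was at -0.73 (edgeR p = 0.0149, exact permutation p = 0.0571) and the sialic acid receptor gene Siglec1 at 0.52 (edgeR p = 0.0177, exact permutation p = 0.0857). Lyve1, a hyaluronan receptor, and the lectin gene Cd209f were named after their values were seen. Lyve1 was at 1.52 (SE 0.59, exact permutation p = 0.0286) and Cd209f at -1.0 (SE 0.35, exact permutation p = 0.0286), both without overlap between the groups. Any gene without overlap has this p, so for genes picked in this way it is a description and no test. Of all genes tested, 2.61% did not overlap in either direction. Cd209f averaged under 1 CPM, with 10 to 58 reads a tumor. Lyve1 had 4.66, 5.05, 6.18 and 5.67 CPM with SR59230A, against 2.28, 0.37, 0.97 and 3.98 CPM with vehicle. Lyve1 is not confined to macrophages, and the part of other cell types in its value was not tested. Siglec1 had 25.2, 18.6, 16.8 and 16.8 CPM with SR59230A, against 12.3, 17.0, 11.1 and 13.4 CPM with vehicle. Among 11 alternative activation genes tested, 3 were higher and 8 lower (median -0.18), although the 2 with the smallest p were both higher, Mgl2 and Chil3 (1.62, edgeR p = 0.0397, exact permutation p = 0.143), which encodes a chitinase-like protein. Retnla and Clec10a are usually counted with these genes, so the higher values of 4 such genes stood beside lower values of most of the list. Among 14 classical activation genes tested, 8 were higher and 6 lower (median 0.02), and 8 of the 16 listed genes averaged under 1 CPM, Nos2, Il1b, Tnf and Cxcl9 among them. The interferon-induced chemokines Cxcl9 and Cxcl10 were at -1.27 (SE 0.71, exact permutation p = 0.571) and 0.53 (SE 0.54, exact permutation p = 0.714). Cxcl9 had 0.38, 0.42, 0.39 and 0.31 CPM with SR59230A, against 0.59, 0.45, 0.18 and 2.49 CPM with vehicle. Cxcl10 had 1.99, 4.25, 12.2 and 3.19 CPM with SR59230A, against 2.43, 3.55, 2.93 and 6.01 CPM with vehicle. Each gene thus had a single high tumor, vehicle tumor 3 for Cxcl9 and SR59230A tumor 3 for Cxcl10.

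Of 17 myeloid inhibitory and toll-like receptor genes tested, 12 were higher and 5 lower (median 0.13). Tlr7, an endosomal receptor for single-stranded RNA, had 2.43, 3.18, 4.48 and 4.53 CPM with SR59230A, against 1.47, 2.07, 1.84 and 2.03 CPM with vehicle. Its groups did not overlap, as for 2.61% of all genes in either direction. The log2 fold change was 0.97 (SE 0.27, edgeR p = 0.00525, edgeR adjusted p = 0.996, exact permutation p = 0.0286). Cd33, an inhibitory sialic acid receptor, was at 0.74 (edgeR p = 0.0498, exact permutation p = 0.0571). The 20 other lipid-associated macrophage genes were evenly divided, 10 higher and 10 lower (median 0.00), with Plin2, a lipid droplet coat protein, at -0.33 (edgeR p = 0.0364, exact permutation p = 0.0571) and the lysosomal lipase gene Lipa at -0.38. The 16 phagocyte oxidase and kinase genes were at a median of -0.02, with 7 higher and 9 lower, Ncf1 at 0.43 and Plcg2 at -0.28. Of 12 pan-leukocyte genes, 4 were higher and 8 lower (median -0.11), with Lcp1 at -0.33 and Coro1a at -0.34. The summed leukocyte signal was 83.2 to 106 CPM with SR59230A and 87.2 to 144 CPM with vehicle, and the highest value was that of vehicle tumor 3.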

How the data were processed

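Total RNA of 8 tumors was sequenced from stranded libraries. The authors quantified transcripts with Salmon, and their deposited files hold, for 116747 transcripts, estimated counts and TPM. The transcriptome was GRCm38 by the methods and GRCm39 by the processing notes. The files hold no coordinates, and 99.1% of transcripts were matched by identifier without version to GENCODE annotation of GRCm38. A second deposited table gives, per gene, a normalized count signal from DESeq2, scaled between libraries, and holds 10 of the 35 members. One of its vehicle columns names only the group and was given no tumor number.

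Estimated counts were summed per gene and rounded. edgeR 4.0.16 (R 4.3.3) was run over all genes with its default filter, TMM factors and the quasi-likelihood test (standard error taken as the fold change over the square root of F), with Benjamini-Hochberg adjustment over 15193 genes. Single genes were compared by exact two-sided permutation of log2 CPM over 70 assignments. CPM compares tumors, and TPM orders genes by level, since TPM also moves with the other transcripts of a library. Alternatives were DESeq2 1.42.0, limma 3.58.1 on TPM with pseudocounts of 1 and 0.1 and on the deposited normalized counts, transcript length offsets, other scaling, no filter, a block for the tumor number, and fits without single tumors. Totals of 23484190 to 44045575 reads limit precision most for members with few reads. The fitting code was tested on simulated data. The members and lists were chosen with earlier results of these data known. Members given per tumor were those without overlap, the 6 with the smallest p, the 4 with the largest fold change, the 6 with the highest TPM, the 4 most variable, and the 4 outside the core with the smallest p on the core scale. Csf1r, Adgre1, Mpeg1, Fcgr2b, Trem2, Siglec1, Tlr7 and Lyve1, and genes named for shared sequence or as markers, were given per tumor after their values were seen. At most 2 genes with the smallest p were named from each other list.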

Additional observations from a re-analysis of the deposited data

Results flagged for a closer look

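In 6 of 70 groups of 4 tumors, 1 tumor lay far from the other 3 by Dixon's ratio at its 95% critical value, and chance alone gives about 1 in 20 groups. Vehicle tumor 3 accounted for 4 of the 6. It had 441 CPM of Mrc1 against 156 to 194 CPM in the other vehicle tumors, 16.6 CPM of Msr1 against 10.2 to 11.1 CPM, 12.7 CPM of Fcer1g against 5.82 to 6.79 CPM, and 8.62 CPM of Clec7a against 2.95 to 3.31 CPM. SR59230A tumor 1 had 4.39 CPM of Cx3cr1, against 0.54 to 0.72 CPM in the other SR59230A tumors. SR59230A tumor 4 had 3.85 CPM of Ms4a7, against 6.17 to 6.47 CPM in the other SR59230A tumors.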

How the results depend on the processing

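Of the 15 members given per tumor by rule, 8 kept the sign of their fold change under all alternatives run, of which at most 22 were run per member. Clec10a ranged from 1.39 to 2.18 when 1 tumor was left out, Retnla from 0.68 to 1.46 and Fcgr1 from -0.58 to -0.31. DESeq2 called 36 genes, 1 of them a member (Clec10a, 1.86). For tumors 1, 2 and 3 of each group, the log2 CPM of each gene was taken as its deviation from their mean. Between the 2 tumors of replicate numbers 1, 2 and 3, correlations of these deviations over genes were -0.09, 0.60 and 0.60. Among vehicle tumors 1 to 3, SR59230A tumors 2 and 3 matched best the tumor of their own number. SR59230A tumor 1 matched best vehicle tumor 3. Whether the numbers mark pairs was not tested. The fit with the numbers as a block gave 2 DEGs and the same 6 tumors without the block 1, with no member among them. Genes at an unadjusted edgeR p under 0.05 numbered 863 with the block and 405 without it, of 15307 tested. With the block they held 1 member, Apoe, and without it 0. With and without the block, Lgmn was -0.051 and -0.039, Lyz2 0.037 and 0.063, Cd163 -0.14 and -0.056, Clec10a 1.08 and 1.5, and Cx3cr1 -1.30 and -0.76.

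Counts of members without overlap were 0 with total counts (1.74% of all genes), 2 on the core scale, 1 in TPM (1.11%; Spi1 in place of Fcgr1), 1 to 4 with 1 tumor left out, 11 without SR59230A tumors 1 and 2 (13.8%) and 8 without vehicle tumors 0 and 3 and SR59230A tumor 4 (29.4%). Leaving out vehicle tumor 3 or SR59230A tumor 1 gave 4 each (9.83% and 4.79%), and vehicle tumor 2 or SR59230A tumor 2 gave 2 each (5% and 5.42%). With 1 tumor left out, DEGs among all genes were 0 to 1 (1 without SR59230A tumor 4), Ctss ranged from -0.026 to 0.42, Lyz2 from -0.36 to 0.15, Cd163 from -0.0080 to 0.61 and Lgmn from -0.057 to 0.15. Without SR59230A tumors 1 and 2, Apoe was -0.023 and Ctss -0.0020. Without vehicle tumors 0 and 3 and SR59230A tumor 4, Lgmn was -0.021 and Lyz2 0.14. Without SR59230A tumors 3 and 4, added after seeing the data, 5 members did not overlap (14.1%), 1 gene was a DEG, and Cd14 was -0.18, Lgmn -0.11, Lyz2 0.28, Mrc1 -0.19 and Cd163 -0.50. The cause of these shifts was not tested. Depth limits the low members most, since Itgax and Cx3cr1 reached down to 11 reads.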
